A study of Mus musculus with 23 samples.

Results

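Nuclear genes for the subunits of the mitochondrial respiratory chain and ATP synthase were followed in the livers of female mice of the B6C3F1 hybrid, a strain of rodent cancer bioassays, that had been given furan by mouth. The genes were chosen by symbol: Nduf followed by a, b, c, s or v and a number, together with Ndufab1, for complex I, Sdha to Sdhd for complex II, Uqcr for complex III, Cox4 to Cox8 for complex IV and Atp5 for complex V, with the Ndufaf assembly factors left out. The gene table held 88 protein coding genes with such symbols, of which 85 had a matched probe on the array and 82 were tested, among 19899 genes tested in all. Of those 19899, 12928 had a matched symbol and 6971 were counted under a systematic name that matched no symbol. Both kinds count in the shares of all genes below. The 82 tested members comprised 38 of complex I, 4 of complex II, 8 of complex III, 15 of complex IV and 17 of complex V. All 82 were well above background on all 23 arrays. Of the other genes with a probe, Cox7b2 and Cox8c were above background on 0 arrays and Cox8b on 3, so none of them was tested, and Ndufb1, Ndufb4b and Ndufb4c had no matched probe.

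The respiratory chain carries electrons from NADH and succinate to oxygen. Complexes I, III and IV pump protons across the inner mitochondrial membrane as they do so, complex II joins the chain to the tricarboxylic acid cycle, and ATP synthase, complex V, uses the proton gradient to make ATP. Most subunits are encoded in the nucleus, and hepatocytes, which are rich in mitochondria, depend on the chain for biosynthesis and detoxification. Subunits of complex IV exist in part as pairs of isoforms, one found in liver and most tissues and the other in heart and skeletal muscle, testis or lung.

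The animals were gavaged for 21 days, and livers were taken 4 h after the last dose. The control group of 5 animals received corn oil alone. Furan in corn oil was given to 4 animals at a dose of 1 mg/kg, to 5 animals at a dose of 2 mg/kg, to 4 animals at a dose of 4 mg/kg and to 5 animals at a dose of 8 mg/kg. The mice were 5 to 6 weeks old when bought and were kept for 7 days or more before dosing. Furan is a volatile product of heated food that the liver oxidises to a reactive dialdehyde. Each of the 23 arrays compared the liver of 1 animal, labelled with Cy5, with a universal mouse reference RNA, labelled with Cy3, and no dye swap was made.

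Each value below is a log2 ratio of liver to reference after loess normalisation, and each difference is furan minus control on that scale. An adjusted p under 0.05 in limma, with Benjamini-Hochberg adjustment over all genes tested, was taken as passing. The p-values set a difference against the spread between animals within groups, pooled over all groups. With 1 array per animal, that spread includes differences between arrays. Between 22011 and 30120 probes per array were above background, and all 10 hepatocyte markers were above background on every array, with log2 ratios of at least 4.24. Some arrays stood apart in transcripts of other tissues. In the control group animal 1 had 11 of 12 striated muscle markers above background, and the list's median log2 ratio was 4.77 on its array. Animal 5 at 2 mg/kg also had 11 of 12, with a list median of 1.42, and animal 1 at 4 mg/kg had 7 of 12, with -0.76. The brown and white adipose list had medians of 2.23 in animal 5 at 2 mg/kg, 3.17 in animal 1 at 4 mg/kg and 3.19 in control animal 1, where 4, 5 and 3 of 7 markers were above background, and it was at 1.94 or lower on all other arrays. Animal 1 at 2 mg/kg also had 4 of 7 adipose markers above background, with a list median of 0.98. At 2 mg/kg animal 4 had 8 of 8 neutrophil markers above background, with a list median of 5.25, while controls had 3 or 4 of 8. All 10 pancreatic acinar markers were above background on 4 furan arrays. These were the arrays of animals 1 and 5 given 2 mg/kg, animal 1 given 4 mg/kg and animal 5 given 8 mg/kg. The arrays lay on 5 slides, and all slides but 1 held controls. The hepatocyte list's median log2 ratio ran from 7.33 to 7.70 on the 4 arrays of slide 3. On all other arrays it was at 7.08 or lower.

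Promoters of members are shown for Ndufa6 and Uqcr11, which were lower at the top dose, and for Cox7a1, the muscle-type isoform that set 1 control animal apart. The sequences are from RefSeq on build GRCm38.p6 and run from 250 bases before to 50 bases after the annotated start. Of the 82 tested members 67 had an entry. They were searched on both strands for GCGCATG (part of the NRF1 motif), CCGGAAG (the core bound by ETS factors such as GABPA) and AAGATGG (part of the YY1 motif). These factors are known for binding at nuclear genes of the respiratory chain. Matches of different motifs could overlap. Capitals mark a match. Ndufa6 is read from the minus strand at chr15:82354242-82354541, Uqcr11 from the minus strand at chr10:80406772-80407071 and Cox7a1 from the plus strand at chr7:30183921-30184220.
Ndufa6: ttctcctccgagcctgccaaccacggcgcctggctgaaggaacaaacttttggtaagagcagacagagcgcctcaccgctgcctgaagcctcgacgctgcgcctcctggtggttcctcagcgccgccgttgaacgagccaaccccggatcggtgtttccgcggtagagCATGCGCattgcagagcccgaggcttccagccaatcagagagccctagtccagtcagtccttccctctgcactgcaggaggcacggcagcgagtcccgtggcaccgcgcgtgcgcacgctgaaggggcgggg
Uqcr11: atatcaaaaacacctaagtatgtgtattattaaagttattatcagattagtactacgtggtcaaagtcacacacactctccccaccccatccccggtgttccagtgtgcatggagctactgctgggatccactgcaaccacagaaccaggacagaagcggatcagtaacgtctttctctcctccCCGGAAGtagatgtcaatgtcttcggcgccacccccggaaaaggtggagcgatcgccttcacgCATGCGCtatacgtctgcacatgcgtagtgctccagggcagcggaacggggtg
Cox7a1: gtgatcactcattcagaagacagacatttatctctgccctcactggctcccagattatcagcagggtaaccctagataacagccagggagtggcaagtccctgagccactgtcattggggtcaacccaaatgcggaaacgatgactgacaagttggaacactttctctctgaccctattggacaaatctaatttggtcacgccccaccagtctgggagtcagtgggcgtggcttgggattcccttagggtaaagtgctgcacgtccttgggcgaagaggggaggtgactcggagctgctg
The Ndufa6 window held 1 NRF1 match, from base -82 to base -76 before the start. In the Uqcr11 window 1 ETS match lay from base -66 to base -60 and 1 NRF1 match spanned the start, from base -3 to base 4, with no overlap between them. The Cox7a1 window held none of these letters. The NRF1 letters were in the windows of 13 of 67 member genes (19.4%), against 4.41% of the 27025 genes in the table. The ETS core was in 17 of 67 (25.4%), against 9.93%, and the YY1 letters in 11 of 67 (16.4%), against 7.28%. These shares describe the letters in the windows and carry no test of binding.

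In control livers the subunit genes stood high against the reference. The mean log2 ratio of the 5 controls was above 0 for 80 of 82 members (97.6%), with a median of 1.46, while over all genes tested it was above 0 for 56.6%, with a median of 0.24. By complex the medians were 1.33 for I, 1.88 for II, 1.83 for III, 1.11 for IV and 1.62 for V. The highest control mean was that of Uqcrq, the ubiquinone-binding small subunit of complex III, at 2.76. The 2 members below 0 were Cox6a2, the heart and skeletal muscle isoform of subunit 6a, and Cox4i2, the lung isoform of subunit 4. Liver and dye cannot be told apart in these ratios, since Cy5 always held the liver.

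At 8 mg/kg 3 of the 82 members passed the test, and all 3 were lower in furan livers: Ndufa2 and Ndufa6, accessory subunits of complex I, and Uqcr11, a small subunit of complex III. That is 3.66% of the members, while 8.01% of all genes passed in that comparison, 3.76% of all genes with a lower level. The members that passed as higher numbered 0, beside 4.25% of all genes. At an unadjusted p under 0.05 the count was 21 of 82, all lower, beside 11% of all genes with a lower level and 20.9% in either direction. The intervals were narrow: for 78 of 82 members the 95% interval of the difference lay within 1.5-fold either way, as it did for 61.8% of all genes. The median residual SD was 0.122 for the members and 0.236 for all genes. In a bulk liver sample fewer cells of a type and less RNA per cell cannot be told apart.

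Most members lay slightly below the control mean at 8 mg/kg. The difference was below 0 for 62 of 82 members, beside 55.2% of all genes, with a median of -0.08 against -0.03 over all genes tested, but the median of the members was above 0 when raw median signals were used with normexp background correction (0.06, with 31.7% of members below 0) or with no background correction (0.02, with 42.7% below 0). Without loess it was -0.02. By complex the medians were -0.09 for I, -0.03 for II, -0.10 for III, -0.08 for IV and -0.08 for V. For 12 members every 8 mg/kg animal lay below every control, as was so for 4.32% of all genes, and for 0 members every such animal lay above every control, as was so for 4.44%. Within the 4 slides that held both groups the median over members was -0.07, -0.06, -0.12 and -0.07. With the slide as a fixed block 7 members passed (8.54%), beside 11.7% of all genes in that fit, and with the slide as a random block 11 passed (13.4%), beside 12.3% of all genes.

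**Figure D1:**
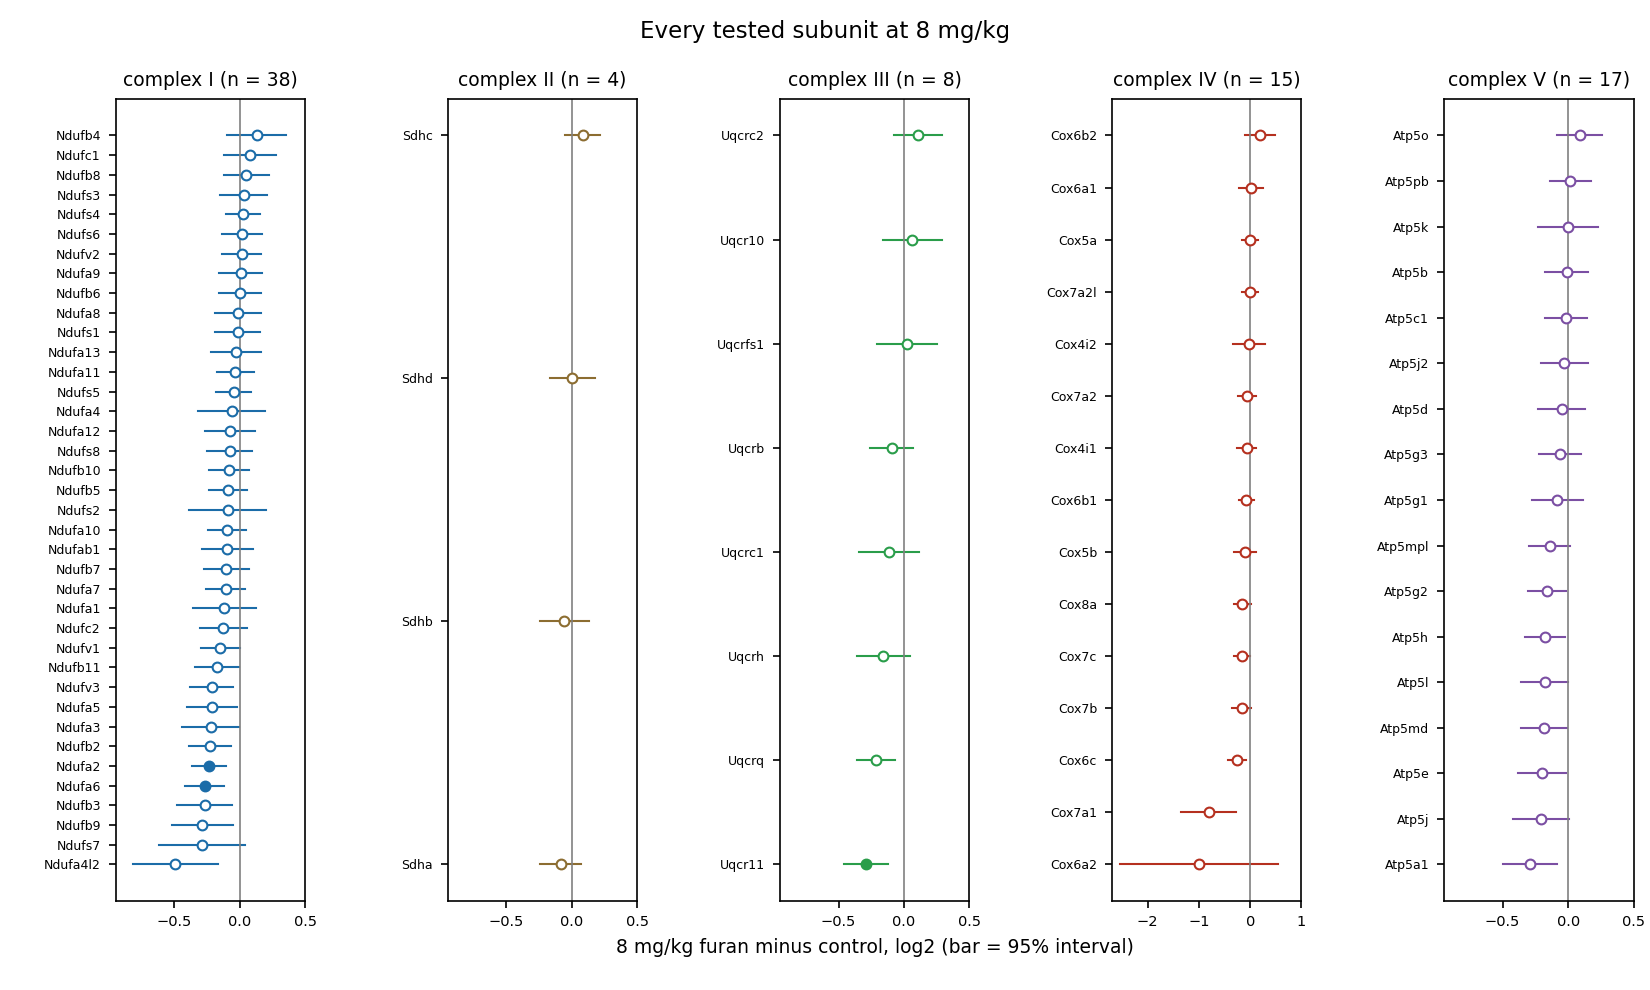
Difference of the log2 ratio between 8 mg/kg furan and control livers (x axis, log2) for each of the 82 tested subunit genes (y axis), by complex, where bars are 95% intervals and filled points passed at an adjusted p under 0.05. The complex IV panel has a wider x axis than the others, and Ndufa2, Ndufa6 and Uqcr11 are the filled points, at -0.24, -0.27 and -0.29.

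Ndufa2 (NM_010885, chromosome 18) is an accessory subunit of the arm of complex I that extends into the matrix. Its log2 ratio was 1.06, 1.08, 1.04, 1.01 and 0.96 in the 5 animals given 8 mg/kg, against 1.21, 1.32, 1.25, 1.23 and 1.33 in the 5 controls. Every 8 mg/kg animal lay below every control, and so did the 4 animals given 4 mg/kg, at 1.04, 1.00, 1.03 and 1.17. The difference at 8 mg/kg was -0.24 ± 0.06 (SE, n = 5 each, limma adjusted p = 0.0229), or 0.8485 of the control level. At 4 mg/kg it was -0.21 ± 0.07 and did not pass (limma adjusted p = 0.294). Within the 4 slides with both groups the 8 mg/kg difference was between -0.27 and -0.21.

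Ndufa6 (NM_025987, chromosome 15), a LYR-motif accessory subunit that binds the mitochondrial acyl carrier protein Ndufab1 at the matrix arm, had log2 ratios of 0.94, 0.95, 0.78, 0.95 and 0.78 in 8 mg/kg livers, against 1.02, 1.15, 1.17, 1.15 and 1.25 in controls. The groups did not overlap. The difference was -0.27 ± 0.07 (SE, n = 5 each, limma adjusted p = 0.0238), or 0.8305 of the control level, and lay between -0.37 and -0.19 within the slides. Through the dose series of 0, 1, 2, 4 and 8 mg/kg the group means were 1.15 ± 0.08, 1.05 ± 0.06, 0.96 ± 0.14, 0.93 ± 0.08 and 0.88 ± 0.09 (SD, n = 5, 4, 5, 4 and 5). Each mean was lower than that of the dose before it, and the SD ranges of neighbouring doses overlapped. Of the members, only Ndufa6 passed at 8 mg/kg on the ratios of the authors' deposited table, where its difference was -0.31 (limma adjusted p = 0.0313).

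Among the other complex I genes, 36 of 38 did not pass at 8 mg/kg. The 7 core subunits, which carry the flavin and the iron-sulfur clusters, had differences from -0.29 to 0.03 with a median of -0.08, and the lowest was that of Ndufs7, the subunit of the last iron-sulfur cluster (-0.29 ± 0.16, limma adjusted p = 0.316). The 29 accessory subunits ranged from -0.29 to 0.13 with a median of -0.10. The 2 highest differences were those of Ndufb4 (0.13 ± 0.11, limma adjusted p = 0.562) and Ndufc1 (0.08 ± 0.10, limma adjusted p = 0.731), both accessory subunits of the membrane arm. Ndufb9, another LYR-motif subunit, and Ndufv1 and Ndufv3, of the NADH-oxidising end, had no overlap between 8 mg/kg animals and controls. Their differences of -0.29, -0.15 and -0.21 did not pass. A further, dimmer probe of Ndufv3 gave a difference of only -0.05, with a correlation of 0.322 to the brightest probe. The symbol rule also takes in Ndufa4, whose protein has since been assigned to complex IV, with a difference of -0.06.

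Ndufa4l2, a paralogue of Ndufa4 known as a hypoxia-induced gene that lowers complex I activity, varied more between animals than most members. Its log2 ratio was 1.17, 1.22, 1.41, 0.83 and 1.28 at 8 mg/kg, against 2.00, 1.52, 1.27, 1.60 and 1.98 in controls. The groups overlapped in 1 control, animal 3, which lay below 2 of the 8 mg/kg animals. The difference of -0.49 ± 0.15 missed the threshold (SE, n = 5 each, limma adjusted p = 0.0549), while the slope on dose passed, at -0.06 ± 0.02 log2 units per mg/kg (limma adjusted p = 0.0238).

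The 4 succinate dehydrogenase genes of complex II gave 0 calls at any dose. At 8 mg/kg the flavoprotein Sdha differed by -0.09 ± 0.08 and the iron-sulfur protein Sdhb by -0.06 ± 0.09. The membrane anchors Sdhc and Sdhd differed by 0.08 ± 0.06 and 0.00 ± 0.08 (SE, n = 5 each). The limma adjusted p was 0.523 or higher for each. Sdha was at 1.74, 1.68, 1.74, 1.71 and 1.68 in 8 mg/kg livers, against 1.75, 1.75, 1.86, 1.77 and 1.84 in controls, which did not overlap but lay close together. All 4 intervals were within 1.5-fold.

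Uqcr11 (NM_025650, chromosome 10), a small supernumerary subunit of complex III, was at 1.86, 1.94, 1.87, 1.78 and 1.84 in 8 mg/kg livers, against 2.10, 2.25, 2.05, 2.19 and 2.13 in controls. Every 8 mg/kg animal lay below every control. The difference was -0.29 ± 0.08 (SE, n = 5 each, limma adjusted p = 0.0323), or 0.8199 of the control level, and between -0.39 and -0.25 within the slides. Uqcrq was at 2.55, 2.61, 2.58, 2.49 and 2.50, against 2.76, 2.78, 2.70, 2.84 and 2.71 in controls, again without overlap, but the difference of -0.21 ± 0.07 did not pass (limma adjusted p = 0.0669). In contrast, the core protein Uqcrc2 and the small subunit Uqcr10 had differences of 0.11 ± 0.09 and 0.06 ± 0.11, and the Rieske iron-sulfur protein Uqcrfs1 of 0.02, and none of them passed.

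In complex IV 0 of 15 genes passed at 8 mg/kg. The 10 isoforms that are ubiquitous or typical of liver had differences from -0.26 to 0.01 with a median of -0.09. The lowest was that of Cox6c (-0.26, limma adjusted p = 0.0612), and the highest that of Cox6a1 (0.01 ± 0.11, limma adjusted p = 0.968). The animal medians over complex IV, with Cox6a2 and Cox7a1 left out, averaged -0.07 ± 0.03 at 8 mg/kg and 0.00 ± 0.04 in controls (SD, n = 5 each).

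The muscle-type isoforms separated 1 control from all other animals. Cox6a2 had a log2 ratio of 0.49 in control animal 1, while the other 22 animals lay between -5.52 and -3.96. That is 40.1-fold over their median. Cox7a1, the heart and skeletal muscle isoform of subunit 7a, was at 1.85 in the same control, 4.13-fold over the median of the others, which ran from -0.64 to 0.29. Cox8b, the muscle isoform of subunit 8, was above background on the arrays of animal 5 at 2 mg/kg, of animal 1 at 4 mg/kg and of control animal 1. These 3 arrays had the highest medians of both the striated muscle and the adipose list. In animal 5 at 2 mg/kg Cox6a2 was at -3.96, the highest of the other 22, and Cox7a1 at -0.04. In control animal 1 the striated muscle markers Ckm, Mb and Myh1 had log2 ratios of 7.09, 5.38 and 6.97, among the highest of the list. Actn3 and Tnnt2 were at -0.05 and -2.21 there, still above the other controls. Myh6 went the other way, at 2.98 in that animal against 4.12 to 4.78 in the other controls. The muscle list's median ratio ran from -2.67 to -1.46 in 8 mg/kg livers, against -1.98 to 4.77 in controls, while the adipose list's ran from -0.30 to 1.94 in 8 mg/kg livers, against -0.40 to 3.19 in controls. The part of muscle or adipose transcripts in the isoform values was not tested. The liver partners Cox6a1 and Cox7a2 did not set that animal apart, at 2.61 and 1.07.

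**Figure D2:**
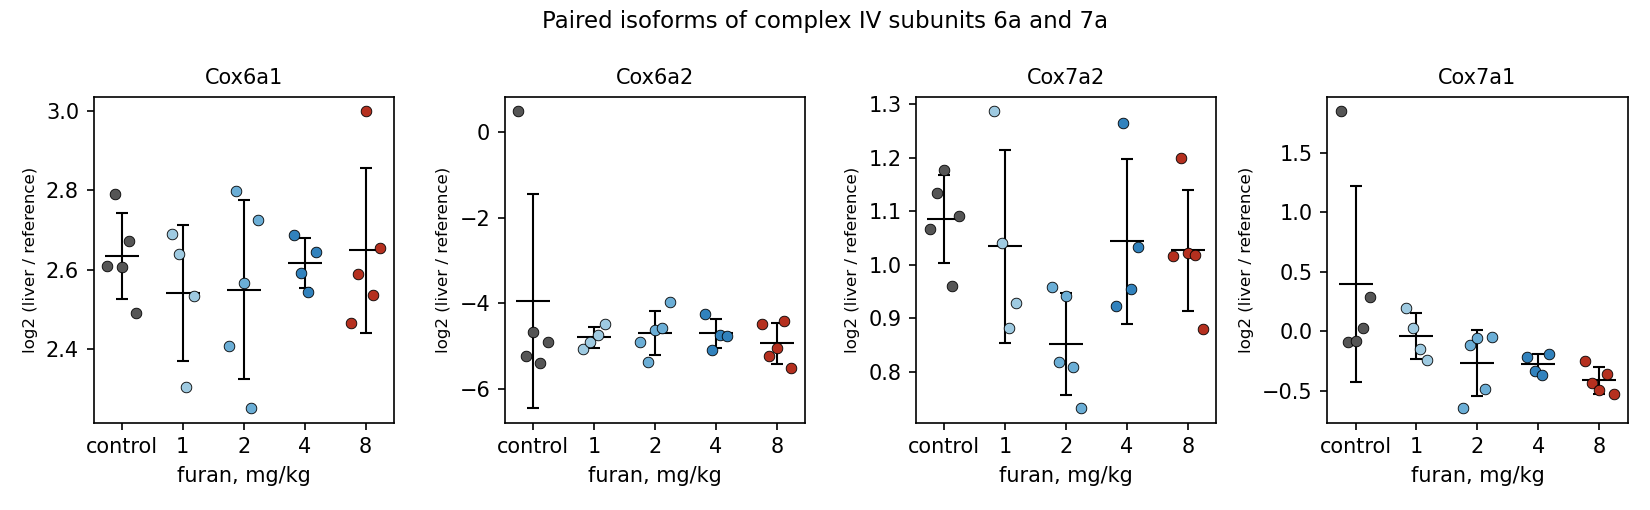
Log2 ratio of liver to reference (y axis) for the liver-type genes Cox6a1 and Cox7a2 and their muscle-type partners Cox6a2 and Cox7a1 in each animal, by dose in mg/kg (x axis), where bars are the group mean and SD. A single control stands apart for Cox6a2 (0.49) and Cox7a1 (1.85), and the y axes differ between panels.

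That control also set the size of the dose differences of these isoforms. Cox7a1 was at -0.25, -0.43, -0.49, -0.35 and -0.53 in 8 mg/kg livers, against 1.85, -0.09, -0.08, 0.03 and 0.29 in controls. Every 8 mg/kg animal lay below every control. The difference of -0.81 ± 0.25 did not pass (SE, n = 5 each, limma adjusted p = 0.0537), and without control animal 1 it was -0.45 and passed (limma adjusted p = 0.0362). For Cox6a2 the difference was -0.99 ± 0.74 (limma adjusted p = 0.502), and 0.12 without control animal 1 (limma adjusted p = 0.905). Cox4i2, the lung isoform, and Cox6b2, the testis isoform, did not pass, at -0.02 ± 0.15 and 0.20 ± 0.14.

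Among the 17 ATP synthase genes 0 passed at 8 mg/kg, and 14 had a difference below 0. The catalytic subunits Atp5a1 and Atp5b differed by -0.29 and -0.01. Atp5a1 was at 1.60, 1.54, 1.28, 1.36 and 1.45 in 8 mg/kg livers, against 1.96, 1.57, 1.69, 1.61 and 1.83 in controls, and the groups overlapped (difference -0.29 ± 0.10, SE, n = 5 each, limma adjusted p = 0.0822). The 3 central stalk genes ranged from -0.20 to -0.01, the 3 c ring genes from -0.16 to -0.06 and the 5 small membrane subunits from -0.18 to 0.00. In the peripheral stalk Atp5j had the lowest difference, -0.21 ± 0.10, and Atp5o the highest of complex V, 0.09 ± 0.08, followed by Atp5pb at 0.02. All 17 intervals lay within 1.5-fold.

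The calls at 8 mg/kg depended on single animals, and both calls and differences on background correction. Without control animal 5 or without animal 5 at 8 mg/kg, the one of that dose with pancreatic transcripts, 0 members passed, without animal 4 at 8 mg/kg 1 passed, and without animal 4 at 2 mg/kg, through the shared spread, 6 passed. The differences stayed close to those over all animals: without animal 5 at 8 mg/kg they were -0.22 for Ndufa2, -0.24 for Ndufa6 and -0.28 for Uqcr11, with limma adjusted p of 0.0595, 0.0648 and 0.0632. Without control animal 5 they were -0.22, -0.24 and -0.29. Without the 4 arrays with pancreatic transcripts 1 passed, Ndufa6, and the differences were -0.22, -0.24 and -0.28 (limma adjusted p = 0.0829, 0.0493 and 0.0905). On raw median signals with normexp correction the differences of Ndufa2, Ndufa6 and Uqcr11 were -0.02, -0.19 and -0.07, and 0 members passed.

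Below the top dose 0 of 82 members passed at 4, 2 or 1 mg/kg, where 0.0804%, 0.0101% and 0% of all genes passed. At an unadjusted p under 0.05, in the same order, the members counted 8, 16 and 1, all lower, beside 4.87%, 4.27% and 1.95% of all genes with a lower level and 8.9%, 8.66% and 3.52% in either direction. The 95% interval lay within 1.5-fold for 80 of 82 members at each of these doses, as it did for 64.3%, 68.1% and 66.9% of all genes. The median difference over members was -0.05, -0.10 and -0.06 in the order 1, 2 and 4 mg/kg, and the comparisons share their controls. In that order 67, 78 and 61 of 82 members lay below 0, beside 53.9%, 52.3% and 55.4% of all genes. Single arrays moved these medians. That of 1 mg/kg was -0.11 without animal 1, -0.01 without animal 3 and -0.02 without animal 4 of that dose, and that of 4 mg/kg was -0.04 without animal 3 of that dose or without control animal 2. The direction at 1 and 4 mg/kg also turned with the scaling. On raw median signals the median of 1 mg/kg was 0.09 with normexp correction and 0.06 with no background correction. That of 4 mg/kg was 0.04 without loess. The median of 2 mg/kg stayed below 0 under every alternative but came nearer to it. With normexp correction it was -0.03, with 65.9% of members below 0. Without the 6 arrays rich in transcripts of other cells it was -0.02, with 58.5% below 0.

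The 2 mg/kg median leaned on animal 4, the one with neutrophil transcripts. In that animal 79 of 82 members lay below the control mean, with a median of -0.33, while the other 4 animals at 2 mg/kg had medians of -0.10, -0.02, -0.04 and -0.08. Without it the 2 mg/kg median was -0.05. Complex III was the lowest part in that animal, at -0.47, followed by complex IV at -0.36. The neutrophil list's median log2 ratio ran between -0.05 and 5.25 in the 2 mg/kg livers, against 0.01 to 1.21 in controls, with Mpo at 5.05 and Ngp at 5.46 in animal 4. Not every marker set it apart. S100a9 was at 7.61 in animal 4 and at 7.74, 8.14 and 7.84 in animals 1, 3 and 5 of that dose. Elane was at 1.67 in animal 4, against 1.05 to 1.40 in controls. The median of the Kupffer cell (liver macrophage) list was 7.9 in animal 4, against 6.6 to 7.6 in controls. It was also 7.9 in animal 5 at 2 mg/kg, and 8.0 in animal 3 at 8 mg/kg. Hepatocyte markers were all above background in animal 4, with a list median of 6.61. The part of the neutrophil or Kupffer cell transcripts in its chain values was not tested.

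**Figure D3:**
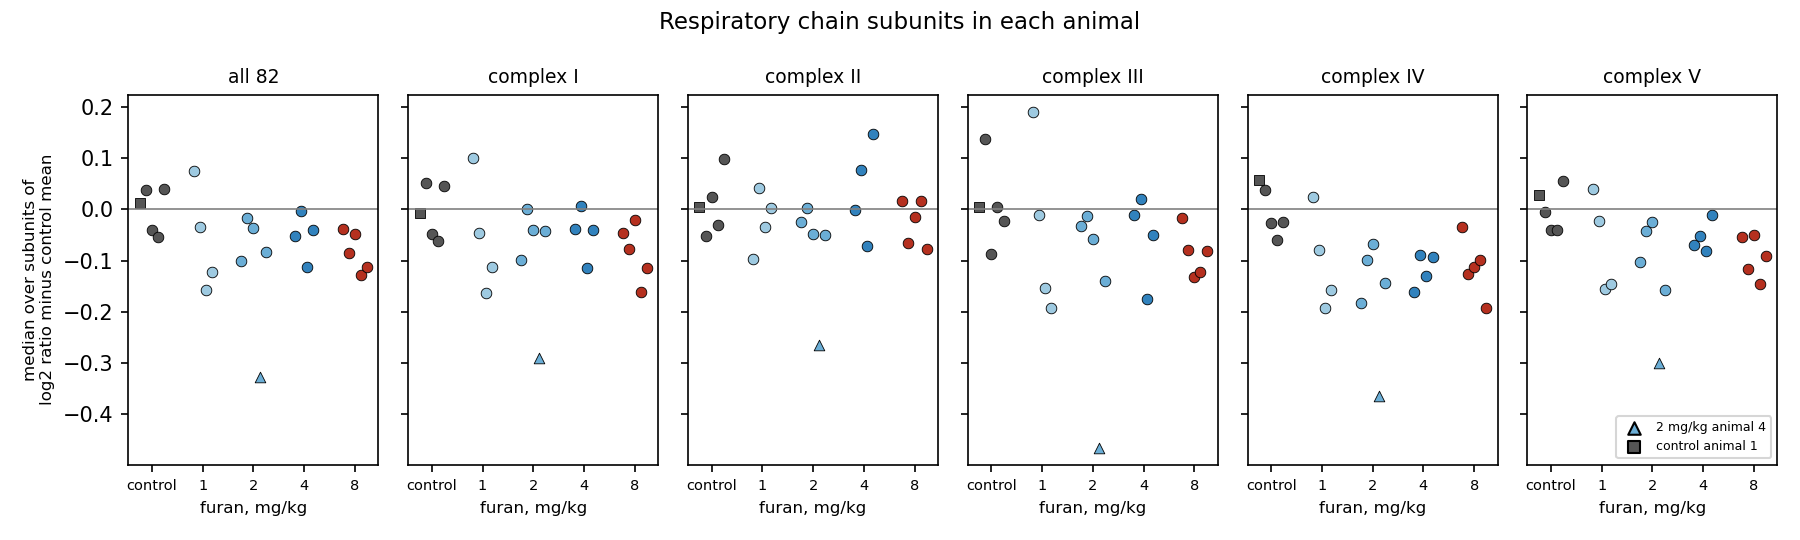
Median over subunit genes of the log2 ratio minus the control mean (y axis) in each of the 23 animals, by dose in mg/kg (x axis), for all 82 genes and for each complex. Animals at 8 mg/kg sit between -0.13 and -0.04 for all genes and controls between -0.05 and 0.04, while animal 4 at 2 mg/kg (triangle) lies at -0.33.

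The slope on dose used all 23 animals. It passed for 6 of 82 members, all with lower levels at higher dose (7.32%), while 10.4% of all genes passed, 5.07% of all genes downward and 5.32% upward. The 6 were Ndufa2, Ndufa4l2, Ndufa6 and Ndufb2 of complex I and Uqcr11 and Uqcrq of complex III. Ndufa2 had the smallest adjusted p among them, with a slope of -0.03 ± 0.01 log2 units per mg/kg (limma adjusted p = 0.0066). Ndufb2, an accessory subunit of the membrane arm, was at 1.54, 1.54, 1.79, 1.66 and 1.45 in 8 mg/kg livers, against 1.76, 1.77, 1.98, 1.73 and 1.86 in controls. One of these 8 mg/kg livers, that of animal 3, lay among the controls, and the slope was -0.03 ± 0.01 (limma adjusted p = 0.0349). The slope count was 2 without animal 4 or without animal 5 at 8 mg/kg, 9 without animal 4 at 2 mg/kg, and 0 on normexp-corrected median signals or on the authors' deposited table.

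**Figure D4:**
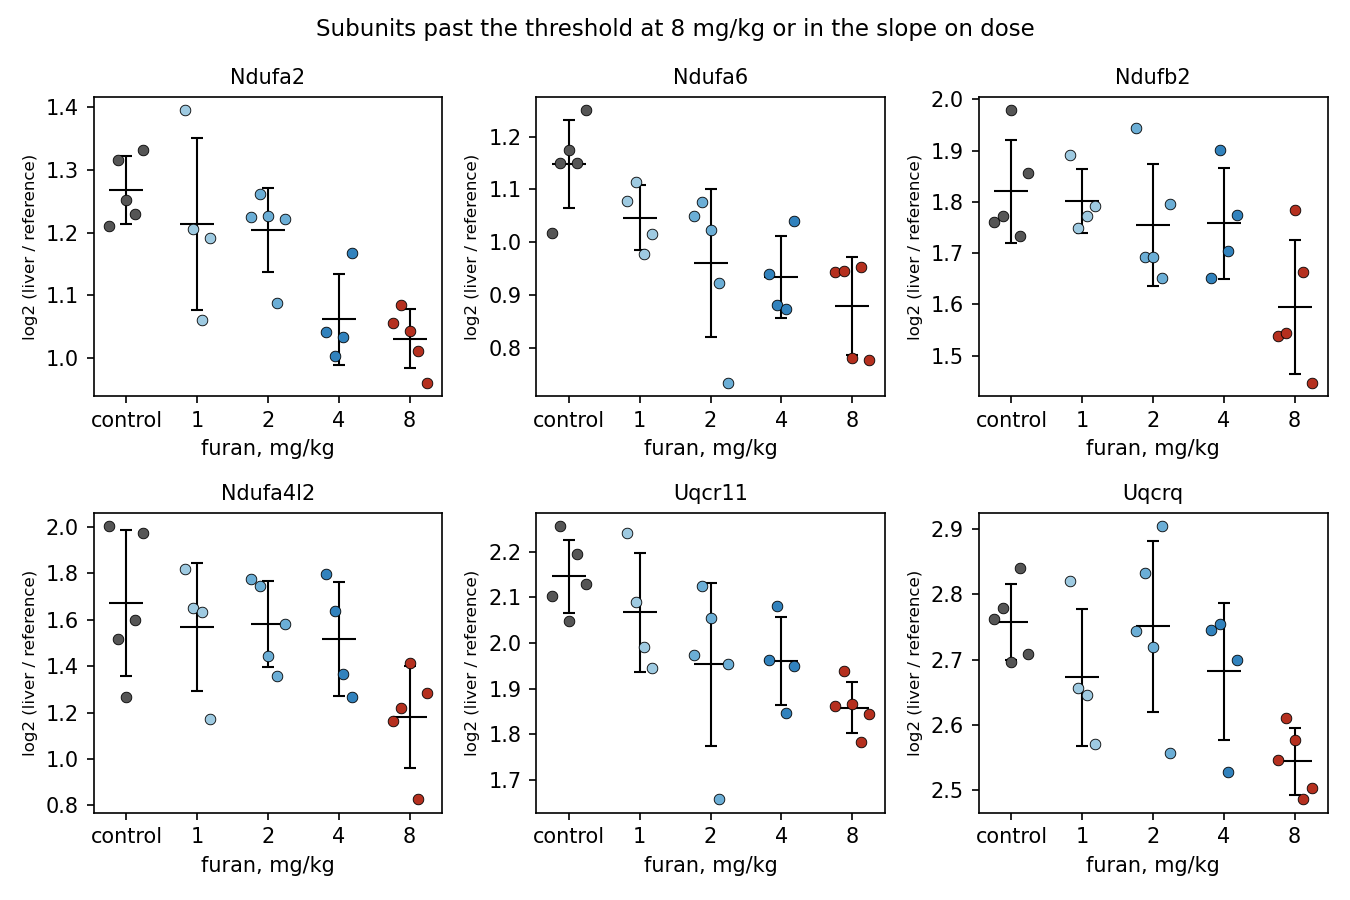
Log2 ratio of liver to reference (y axis) in each animal, by dose in mg/kg (x axis), for the 6 subunit genes that passed at 8 mg/kg or in the slope on dose, where bars are the group mean and SD. Every 8 mg/kg animal is below every control for Ndufa2, Ndufa6, Uqcr11 and Uqcrq, and the groups overlap for Ndufb2 and Ndufa4l2.

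The members varied together from animal to animal. After the group means were removed, the median Pearson correlation over the 3321 pairs of members was 0.385 across the 23 arrays, and 34.3% of pairs were above 0.5. Between members and the other genes tested the median was 0.046, with 6.76% above 0.5. Within complexes the median was 0.448 for I, 0.418 for II, 0.449 for III, 0.276 for IV and 0.408 for V. Each point of such a correlation is 1 array, so the genes share its hybridisation and normalisation. Animal 4 at 2 mg/kg, in which 79 of 82 members lay below the control mean, is among the points, and no correlation was computed without it. The members also had a smaller median residual SD than all genes (0.122 against 0.236), so the pairs with other genes are not matched for noise. Cox4i2 and Ndufs8 had the lowest medians with the rest, at -0.251 and -0.166.

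**Figure D5:**
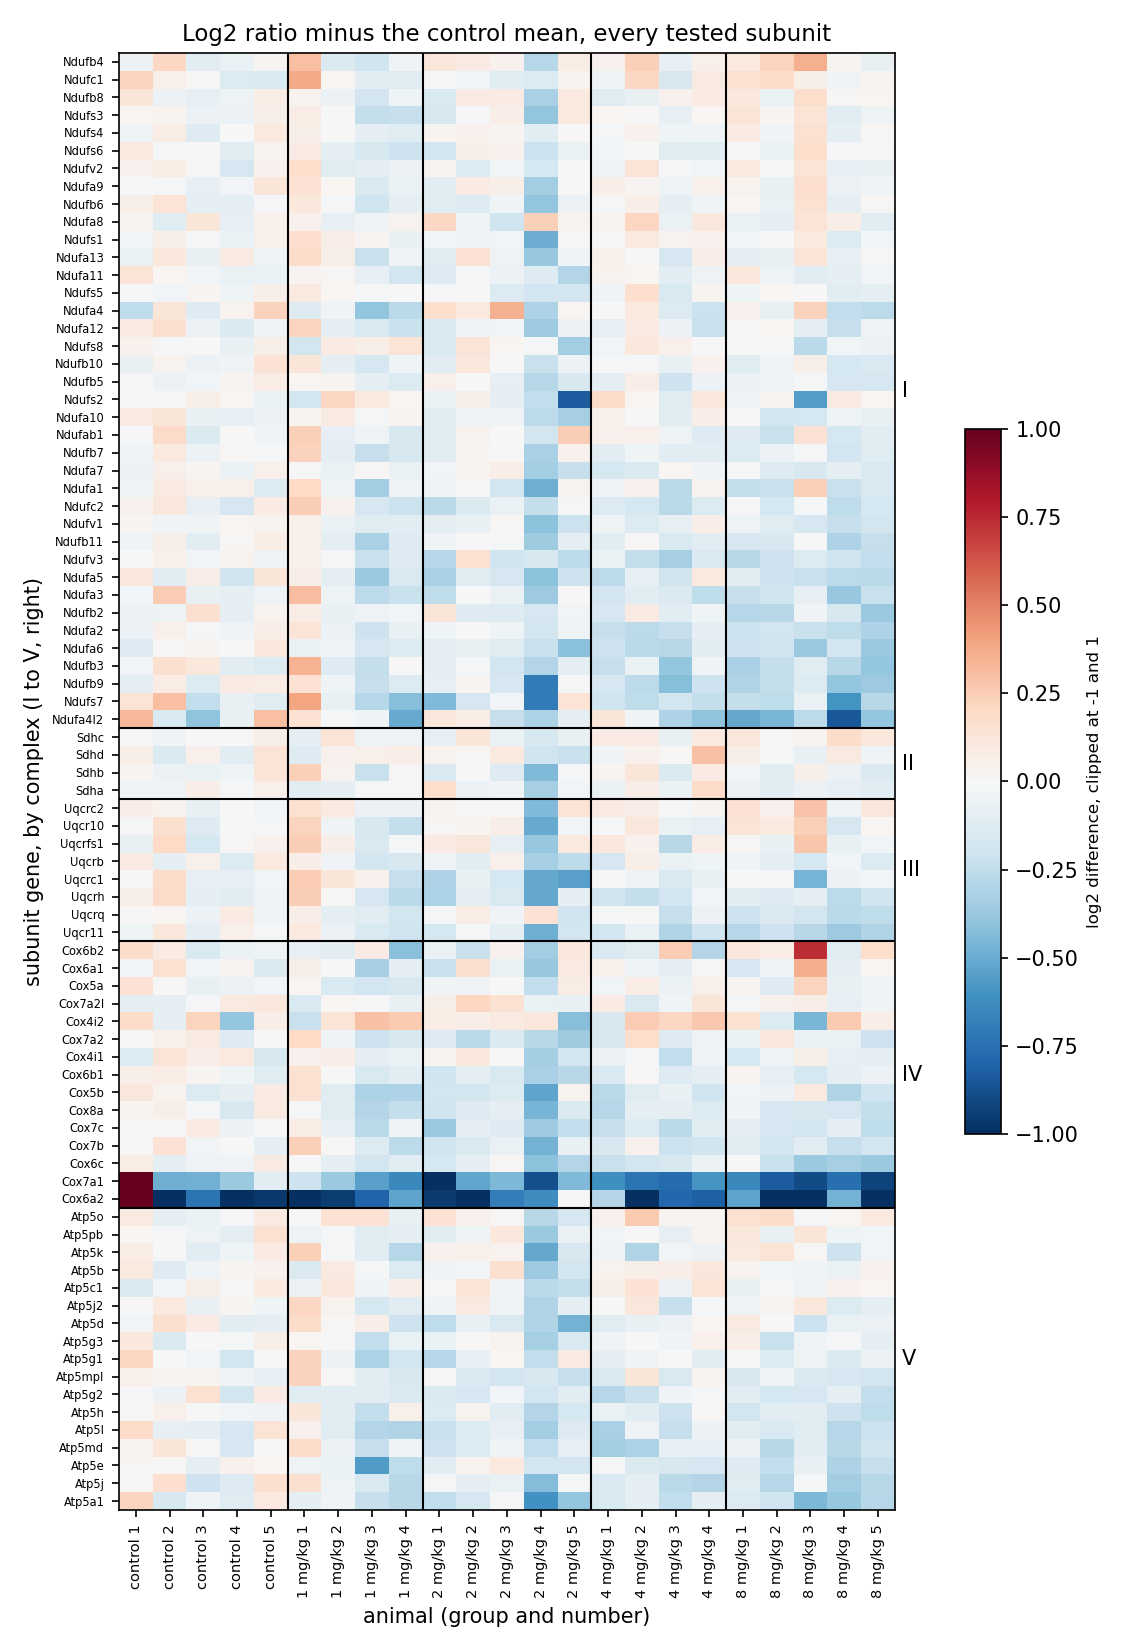
Log2 ratio minus the control mean for the 82 tested subunit genes (rows, by complex and by their 8 mg/kg difference) in each of the 23 animals (columns, by group), with colours clipped at -1 and 1. The column of animal 4 at 2 mg/kg is blue for 79 of 82 genes, and Cox6a2 and Cox7a1 are dark red in control animal 1 alone.

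Several members had more than 1 probe. For 22 genes there were 28 further probes, and 23 of the 28 gave a difference at 8 mg/kg of the same sign as the brightest probe. The median gap between probes was 0.036 and the widest was 0.199, for Cox7c. Of the genes with member symbols 18 were annotated as pseudogenes, and near-identical copies could share the signal of a probe.

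Other genes of mitochondrial energy metabolism were read from lists. Of 44 assembly factors tested, 1 rose and 2 fell at 8 mg/kg, and 41 did not pass. The share that passed was 6.82%, beside 8.01% of all genes. Ndufaf6, an assembly factor of complex I, rose, with 1.61, 1.84, 1.85, 1.79 and 1.58 in 8 mg/kg livers against 1.45, 1.38, 1.36, 1.41 and 1.46 in controls (difference 0.32 ± 0.08, SE, n = 5 each, limma adjusted p = 0.0109). The groups did not overlap. Tmem126b, another complex I assembly factor, and Coa4, of complex IV, fell by 0.29 and 0.26. The slope on dose also passed downward for Surf1, a complex IV assembly factor, and Ndufaf3, of complex I.

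In the lists that follow the share that passed was 10% for electron carriers and coenzyme Q synthesis, 10.5% for the tricarboxylic acid cycle, 4.55% for biogenesis regulators and 9.09% for dynamics and mitophagy, at 1 or 2 genes each, beside 8.01% of all genes. Among 20 genes of electron carriers and coenzyme Q synthesis 1 rose and 1 fell. Pdss1, which makes the side chain of coenzyme Q, differed by 0.50 ± 0.15 (limma adjusted p = 0.0394), and Coq10a, a coenzyme Q binding protein, by -0.64 ± 0.13 (limma adjusted p = 0.0036). Coq10a was at 1.28, 1.10, 1.39, 0.94 and 1.25 in 8 mg/kg livers, against 1.64, 1.94, 1.77, 1.81 and 1.98 in controls, without overlap. Of 19 tricarboxylic acid cycle genes 2 fell, with Idh2, the mitochondrial NADP-dependent isocitrate dehydrogenase, at -0.51 ± 0.12 (limma adjusted p = 0.0098) and Pcx, pyruvate carboxylase, at -0.31 ± 0.07 (limma adjusted p = 0.0082). In the slope on dose 1 gene of this list passed upward, Mdh2, and 2 passed downward, Idh2 and Pcx. Mdh2 did not pass at 8 mg/kg, where it ran from 1.04 to 1.26, against 0.82 to 1.14 in controls. Of 22 biogenesis regulators 1 fell, Mterf4, which acts in assembly of the mitochondrial ribosome (-0.30 ± 0.07). Of 22 genes of mitochondrial dynamics and mitophagy, Mief1, a fission factor, rose by 0.30 and Bnip3, a mitophagy receptor, fell by 0.40. At 4, 2 and 1 mg/kg 0 genes of these lists passed. Subunits encoded in mitochondrial DNA were not analysed here.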

How the data were processed

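Liver RNA of 23 mice was measured on 2-colour arrays of 62976 spots. Per the file headers, the authors extracted the spot intensities with Agilent Feature Extraction 10.7.3.1, which background-subtracted and dye-normalised the processed intensity used here. The authors' deposited value table holds a Cy5 to Cy3 ratio per probe on a linear scale, with column medians of 0.974 to 0.987. How that ratio was normalised is not given in the sources used here, but on the log2 scale it tracked raw median intensities after loess with no background correction (Pearson r across probes 0.995 to 0.997 per array).

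Log2 of processed Cy5 over Cy3 was normalised by loess within each array (span 0.3, 4 iterations, control and marked spots at weight 0), and spots of a probe were averaged. A probe was kept where it was well above background in Cy5 on 4 arrays of a group, which left 25576 of 55681. Systematic names matched 20022 symbols of a RefSeq table of GRCm38.p6. Probes whose name matched no symbol were kept under that name, and these made up 6971 of the 19899 genes tested. The brightest probe stood for a gene. Groups were compared in 1 fit over all arrays with limma 3.58.1 in R 4.3.3 (lmFit, eBayes, 18 residual and 2.325 prior degrees of freedom, two-sided), and a slope on dose was fitted likewise. The code was tested on simulated data. The rule for named genes took every member that passed, the 2 highest and 2 lowest differences of each complex at 8 mg/kg, the isoforms of other tissues, and members of other lists that passed. Other members named (Ndufa4, Ndufb9, Ndufs8, Ndufv1, Ndufv3, Uqcrfs1, Cox6c, Cox7a2, Cox7c and Atp5b) were chosen after their values were seen. Precision is limited by the number of arrays. The members, lists and alternatives were chosen with earlier results of these data known. The alternatives were slide and replicate blocks, other background and normalisation settings, other probe filters, the authors' table and leaving out arrays.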

Additional observations from a re-analysis of the deposited data

Results flagged for a closer look

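The highest and lowest values of each group of 4 or 5 animals were compared with the nearest other animal by Dixon's gap ratio, for 24 named genes and 5 complex medians. Of 145 such sets 15 (10.3%) held an animal far from the rest, and chance marks about 1 in 20. The sets are not independent, since they share the same arrays and the complex medians contain named genes. The share is therefore no test of an excess.

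In control animal 1, Cox6a2 had a log2 ratio of 0.493 and Cox7a1 of 1.846, both far above the other controls. On that array 11 of 12 striated muscle markers and 3 of 7 adipose markers were above background. Animal 5 at 2 mg/kg also had 11 of 12 muscle markers above background, with Cox6a2 at -3.96. The part of muscle or adipose RNA in these values was not tested.

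In animal 4 at 2 mg/kg, the complex II median was -0.265 and the complex III median -0.465 relative to the control mean, both far below the other animals of that dose. The log2 ratios of Ndufa2 (1.088), Ndufb4 (1.111), Uqcr10 (0.914), Uqcrc2 (1.395) and Atp5j (1.327) were also far below those of its group. All 8 neutrophil markers were above background on its array, against 3 or 4 of 8 in controls, and the part of neutrophil transcripts in these values was not tested.

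The others were single values. Sdhc was high in animal 2 at 1 mg/kg (1.372) and low in animal 3 at 4 mg/kg (1.165), and Sdhd was low in animal 1 at 1 mg/kg (1.838). Cox4i2 was low in animal 5 at 2 mg/kg (-0.965) and in animal 1 at 4 mg/kg (-0.698). Both of those arrays carried all 10 pancreatic acinar markers above background. On the other arrays with all 10, Cox4i2 was at -0.465 (animal 1 at 2 mg/kg) and -0.474 (animal 5 at 8 mg/kg). Its lowest value, -0.996, was in animal 3 at 8 mg/kg, which had 3 of 10 above background. The part of pancreatic transcripts in the Cox4i2 values was not tested. Atp5o was high in animal 2 at 4 mg/kg (1.12).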

How the results depend on the processing

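At 4, 2 and 1 mg/kg 0 members passed under all 14 alternatives and all 23 fits that left out 1 array. At 8 mg/kg, where 3 passed, 7 passed with the slide as a fixed block and 11 as a random block, 6 when probes had to be above background on all arrays, 1 after quantile normalisation, 1 on the authors' table, 1 without the 4 arrays rich in pancreas transcripts and 1 without slide 3. The count was 0 with normexp correction, with no background correction, without loess and with no filter on dim probes, which tested 37163 genes in place of 19899. For the slope, where 6 passed, the count was 11 and 10 with the slide as a fixed and a random block, 0 with normexp, 0 with no background correction, 0 on the authors' table, 1 without loess, 1 with no filter, 2 after quantile normalisation and 3 without the pancreas-rich arrays. Leaving out 1 array gave 0 to 6 members at 8 mg/kg and 2 to 9 for the slope. Among the named genes 0 values that passed changed sign. Apart from the number of genes tested, the cause of these changes was not tested. Without the 6 arrays rich in transcripts of other cells, an alternative chosen after seeing the data, 2 members passed at 8 mg/kg and 5 in the slope. At 8 mg/kg Ndufa6 and Cox7a1 passed (limma adjusted p = 0.0326 and 0.0361). Ndufa2 and Uqcr11 did not (limma adjusted p = 0.0871 and 0.0518).

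Whether replicate numbers pair the animals could not be decided from the values. Same-numbered animals of different groups had a median correlation of deviations of 0.023, with 14 of 43 pairs over 0.1. The median was -0.041 for other pairs and 0.224 for animals on the same slide. Of 23 animals 7 correlated best with their own number, and no chance level was computed for that count. With the number as a replicate block 4 members passed at 8 mg/kg and 5 in the slope.

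Over all genes the count at 8 mg/kg was 1593, and 2454 with the slide as a random block, 1009 with normexp, 1013 with no background correction, 931 on the authors' table and 930 with no filter. For the slope it was 2068, and 1298 to 3015 under the alternatives. At 4 mg/kg it was 16, and 5 to 122, and at 2 mg/kg 2, and 0 to 7. Leaving out 1 array gave 1155 to 1784 genes at 8 mg/kg, 6 to 23 at 4 mg/kg and 0 to 7 at 2 mg/kg.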
